A study of Drosophila melanogaster with 15 samples.

Results

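A set of 66 probe sets had lower signals in svb mutant embryos and higher signals in pri mutant embryos than in wild-type (wt) embryos of Drosophila melanogaster. Members were chosen on the signals themselves. On the log2 scale, all 5 svb arrays had to lie below all 5 wt arrays, and all 5 pri arrays had to lie above all 5 wt arrays. The highest of the 3 group means also had to be at least 5, a signal of 32. Of 18769 probe sets without the array's own controls, 8631 passed this level, and 66 of these met the rule. A further 8 probe sets met both order conditions but stayed under the level and were left out. Probe sets of the authors' table of selected genes were to be left out too, but 0 members had to be removed for this. Every member thus lies outside that table, which the rule fixed in advance. The 144 tested probe sets of that table had pri minus wt differences between -5.73 and -0.98 on the log2 scale.

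Samples were whole embryos aged 13 to 15 h after egg laying, 200 per sample, with 5 samples per genotype and 1 array per sample. The mutants were svb -/- embryos carrying the allele svbR9 and pri -/- embryos carrying the allele pri1, and wt embryos were the controls. Mutants came from stocks held over balancers marked with green fluorescent protein, and embryos that the labels call homozygous were picked by hand. The svb gene lies on chromosome X, so that hemizygous males may be among the svb embryos. The share of males may thus differ between svb and wt samples, which was not tested. The sex of the embryos and their exact age within the window are not given in the sources used here. In such bulk RNA, fewer cells of a type and less RNA per cell cannot be told apart.

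The gene svb (shavenbaby, a transcript of the ovo locus) encodes a zinc-finger transcription factor that marks the epidermal cells forming trichomes, hair-like outgrowths filled with actin that cover parts of the larva. The gene pri, also called tal, encodes very short peptides that act on the Svb protein. Svb is made as a long repressor, and Pri peptides lead to removal of its N-terminal part, which leaves a shorter activator of trichome genes. Loss of either gene thus removes the activator, but loss of pri leaves the long form in place. The sources used here pair no member with a gene, so that members are described by probe set, and roles, sequences and chromosomes are not given. For the same reason svb and pri themselves and markers of the labelled tissue were not checked on these arrays.

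Array-wide measures set the frame for the values. The median signal over all probe sets was 13.2 ± 2.33 on svb arrays, 16.1 ± 0.882 on pri arrays and 14.0 ± 0.930 on wt arrays (SD, n = 5 each). Between pri and wt this difference had an exact permutation p of 0.00794, the smallest that 5 against 5 arrays can give (two-sided, adjusted p = 0.0397 over 10 comparisons of array measures). Between svb and wt it had an exact permutation p of 0.532 (two-sided, adjusted p = 0.591). All these medians lay under the filter level of 32, so that both tests set dim signals against each other. On average, 41.8% of probe sets on svb arrays, 43.1% on pri arrays and 42.2% on wt arrays were over this level. Over the tested probe sets, the median pri minus wt difference on the log2 scale was -0.04. Svb replicate 4 stood apart, with a median signal of 9.82 against 12.4 to 15.6 on the other svb arrays and a score of 86.9 on the first principal component against 8.52 to 45.5. No ratio of the 3' to the 5' end of actin, GAPDH or eIF-4a transcripts differed from wt after adjustment, the smallest adjusted p of the exact permutation tests being 0.0794. All 6 mean ratios were nevertheless lower in the mutants. They were 3.35 in svb, 3.22 in pri and 4.51 in wt for actin, 2.51, 2.77 and 3.11 for GAPDH, and 5.98, 5.90 and 8.002 for eIF-4a. The unadjusted exact permutation p was 0.0317 for GAPDH and for eIF-4a in svb, and the part of RNA quality in the members' values was not tested.

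Members showed moderate differences in most cases and very large ones in a few. Signals of the members, as medians of their geometric means, were 27.8 in svb, 151 in pri and 65.8 in wt. Over all tested probe sets the same medians were 131, 134 and 133. The svb minus wt difference over the members had a median of -1.11 on the log2 scale, and ranged between -5.92 and -0.27, values under 32 included as measured. The pri minus wt difference had a median of 1.12, and ranged between 0.30 and 4.73. Since the rule used these contrasts, the values describe how the members were chosen and were not tested. Over all tested probe sets the corresponding medians were -0.01 and -0.04.

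The background of each condition of the rule was unequal. Among the 8631 tested probe sets, 350 (4.06%) lay below wt on every svb array, and 1274 (14.8%) lay above wt on every pri array. Of the members, 56 passed the limma test (Benjamini-Hochberg adjusted, threshold 0.05) as lower in svb, against 345 (4.00%) of all tested probe sets. Of the members, 65 passed as higher in pri, against 1576 (18.3%) of all tested probe sets. These member counts follow from the rule and are given as a description. Both contrasts share the wt arrays, and 55 members passed in both. The opposite pattern, higher in svb and lower in pri with no overlap, was found for 18 probe sets outside the table of selected genes.

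**Figure D1:**
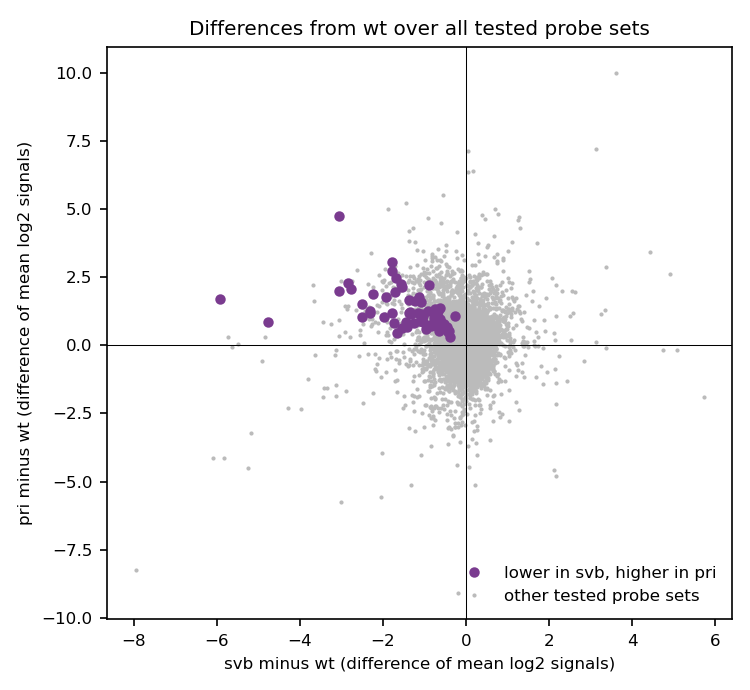
Each point is 1 of 8631 tested probe sets, placed by its svb minus wt difference (horizontal axis) and its pri minus wt difference (vertical axis) of mean log2 signals. The 66 members (large points) lie in the upper left by their choice, and many lie within the range of the other probe sets (small points), while 1 member, whose svb signals are under 32, lies far to the left at -5.92 in svb.

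The deepest fall in svb was that of probe set 1641307_at. Its signals were 7.62, 3.88, 3.29, 1.74 and 6.58 on the svb arrays, 801, 646, 827, 889 and 890.2 on the pri arrays, and 294, 229.6, 339.9, 151 and 265 on the wt arrays. All svb values were thus in the range of dim probe sets, while the pri and wt values were bright and did not overlap. Mean signals were 4.62 ± 2.42 in svb, 811 ± 99.8 in pri and 256 ± 71.1 in wt (SD, n = 5 each). Because the svb mean lay under the filter level, the fall is given as a bound, at least 7.72-fold, and the pri mean on the log2 scale was 3.26-fold higher than wt.

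Probe set 1624543_s_at had the second deepest fall. Its signals were 7.44, 12.9, 6.62, 5.93 and 5.01 on svb arrays, 406, 239, 325, 449 and 394 on pri arrays, and 207, 195, 219, 145 and 223 on wt arrays. The svb arrays were far below the other 10 arrays, but the lowest pri array was just above the highest wt array. Its means were 7.58 ± 3.10 in svb, 363 ± 82.1 in pri and 198 ± 31.5 in wt (SD, n = 5 each). The fall in svb was at least 6.11-fold, and the rise in pri was 1.81-fold.

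Probe set 1626830_at had the largest difference between pri and wt as measured, with signals under 32 included. Its signals were 0.215, 0.653, 0.487, 0.480 and 0.617 on svb arrays, 84.7, 119, 129, 78.6 and 104 on pri arrays, and 7.26, 2.26, 1.69, 7.73 and 3.68 on wt arrays. Only the pri arrays were above the filter level, so that the order of svb and wt rests on values with no reliable scale. Its pri mean was at least 3.16-fold above wt, the bound being taken against the filter level, and no fold is given for svb. Its rank in pri thus rests on dim wt values, and with means under 32 set to 32, 1625894_at rose more (8.35-fold).

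Probe set 1625894_at had the second largest rise in pri as measured, and the largest with means under 32 set to 32. Its signals were 40.5, 22.0, 49.6, 12.6 and 18.4 on svb arrays, 717, 695, 833, 689.8 and 695 on pri arrays, and 134, 83.7, 61.7, 83.9 and 84.1 on wt arrays. Here the pri arrays formed a narrow group far above wt, and the svb arrays scattered more widely below it. Mean signals were 28.6 ± 15.7 in svb, 726 ± 60.8 in pri and 89.5 ± 26.8 in wt (SD, n = 5 each). The fall in svb was at least 2.71-fold and the rise in pri was 8.35-fold.

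**Figure D2:**
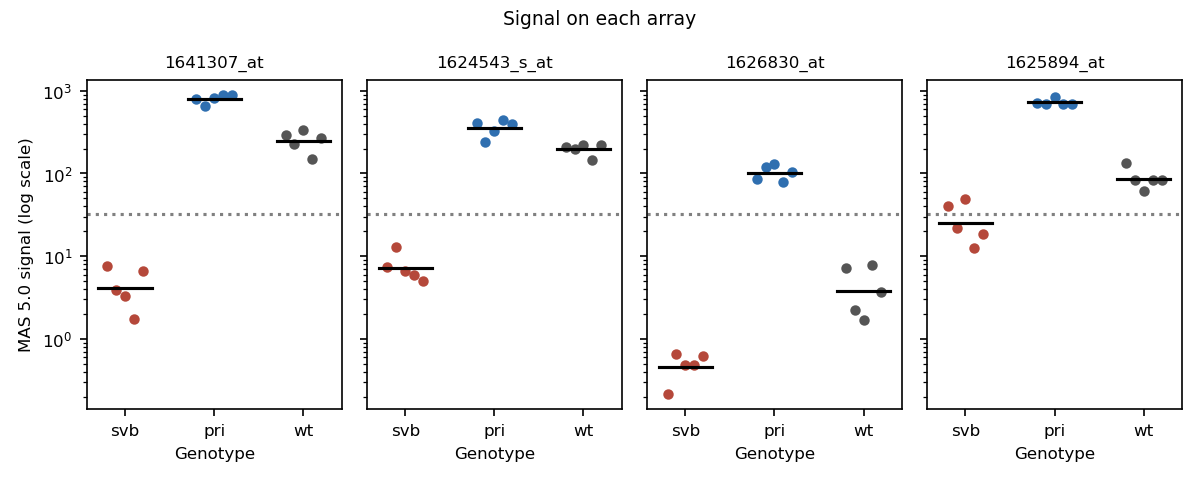
Signals (vertical axis, log scale) of the 2 members with the deepest falls in svb and the 2 with the largest rises in pri, as measured, by genotype, 1 point per array with a line at the geometric mean. The dotted line is the filter level of 32, under which all svb arrays of 1641307_at, 1624543_s_at and 1626830_at and all wt arrays of 1626830_at lie.

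By level, the members fell into 3 classes. Limma calls in each class follow from the rule and are given as a description. Over all tested probe sets, 4.00% were called lower in svb and 18.3% higher in pri. In 31 members the mean signal was at least 32 in all genotypes, although 7 of them had at least 1 svb array under 32. In these 31, called bright below, the median fall in svb was 1.69-fold (range 1.21 to 3.35) and the median rise in pri 1.75-fold (range 1.23 to 5.60). Of the 31, 28 passed the limma test in svb and 31 in pri, and 6 changed at least 2-fold in both contrasts. The brightest of them had mean signals of 502 ± 28.01 in svb, 1054 ± 86.9 in pri and 696 ± 63.2 in wt (SD, n = 5 each). It was 1.38-fold lower in svb and 1.51-fold higher in pri, and its 3 groups of arrays were narrow and separate.

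In 21 members the mean lay under 32 in svb only. The rise in pri had a median of 2.28-fold (range 1.56 to 8.35) in this class. The fall in svb is known only as a bound, whose median was at least 1.33-fold (range 1.01 to 7.72). Of the 21, 17 passed in svb and 21 in pri. One member of this class varied little, with svb signals between 11.6 and 13.7, pri signals between 54.6 and 62.1, and wt signals between 29.1 and 44.8. Another varied widely in svb, with signals of 40.3, 10.2, 15.4, 0.908 and 4.06 on svb arrays, 314, 179.8, 343, 158 and 156 on pri arrays, and 59.1, 52.04, 41.7, 50.2 and 54.2 on wt arrays.

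In the remaining 14 members both svb and wt lay under 32, and only the pri mean reached the level. These passed the filter through the genotype in which they were high, so that their higher pri signal was required. Their rise in pri is a bound, with a median of at least 1.84-fold (range 1.13 to 4.40), and no fold is given for svb. Of the 14, 11 passed the limma test in svb and 13 in pri, which follows from the rule, and the svb calls set means under 32 against each other. The 1 member that did not pass in pri belongs here, with pri signals between 29.3 and 46.3 and wt signals between 14.8 and 21.9.

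The rule favoured low signals in svb, and it allowed no member with a pri mean under 32. In svb, 35 members (53.0%) had a mean under 32, against 9.28% of tested probe sets. In wt this was the case for 14 members (21.2%), against 8.24% of tested probe sets. Over the 801 tested probe sets with an svb mean under 32, members included, the median pri array lay 0.97 to 1.29 above the wt mean on the log2 scale. A probe set that is dim in svb entered the test through a brighter genotype, so that this shift of dim probe sets is set by the filter in part. How far it enters the members' pri values was not tested. The 31 members with group means of at least 32 had pri array medians of 0.80 to 0.95 above wt, which the rule required to be positive.

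**Figure D3:**
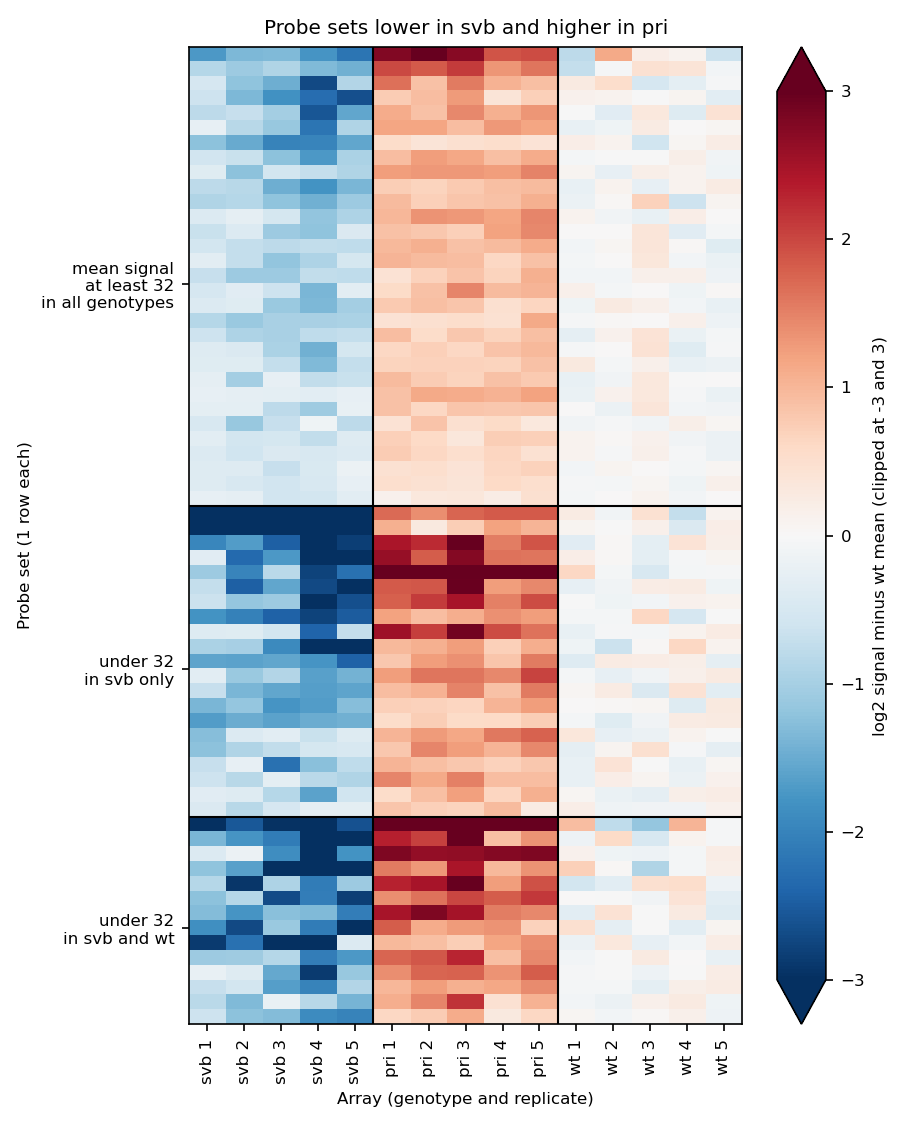
Log2 signal minus the wt mean of the same probe set for each of 66 members (vertical axis, 1 line each) on each array (horizontal axis, svb, pri, then wt), with blue for lower, red for higher and the scale clipped at -3 and 3. The 31 members at the top are bright in all genotypes and have paler colours than the 21 and the 14 dim members under them, and the svb replicate 4 column is the darkest of the svb columns in many lines.

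The sizes of both differences could be set against each other in the 31 members with group means of at least 32. Among these the svb difference was the larger in 12 members and the pri difference in 19, and 22 differed by at least 1.5-fold in both contrasts. Over all 66 members, with means under 32 set to 32, a fall of at least 4-fold in svb was reached by 2 members, 1641307_at and 1624543_s_at. A rise of at least 4-fold in pri was reached by 6.

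The smallest fall in svb belonged to a bright member with mean signals of 273 ± 6.40 in svb, 698 ± 61.1 in pri and 333 ± 52.6 in wt (SD, n = 5 each). Its highest svb array had 279.9 and its lowest wt array 286, and it did not pass the limma test in svb. The smallest rise in pri was 1.23-fold, in a member with 261 ± 26.7 in svb, 421 ± 36.3 in pri and 341 ± 17.5 in wt (SD, n = 5 each). In both, the groups met the rule by a narrow gap.

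The gap between groups, taken as the smaller of the log2 distance from the highest svb array to the lowest wt array and from the highest wt array to the lowest pri array, had a median of 0.15 over the members. It was over 0.5 in 9 members and under 0.1 in 22, and 41 probe sets missed the rule by less than 0.1. The member nearest to the edge had a highest svb array of 116.3 and a lowest wt array of 117.3. The nearest probe set outside had a highest svb array of 56.07 and a lowest wt array of 56.03. The set therefore had no sharp border.

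Svb arrays scattered more than the others in the members. The median over the members of the SD on the log2 scale was 0.43 in svb, 0.24 in pri and 0.22 in wt, against 0.33, 0.27 and 0.27 over all tested probe sets. It was 0.54, 0.23 and 0.31 in the 1149 probe sets that were higher in pri and overlapped wt in svb. In the 195 that were lower in svb and overlapped wt in pri it was 0.23, 0.26 and 0.22. Of the members, 53.0% had an svb mean under 32, and the part of dim signals in this scatter was not tested. As a median over the members, the log2 signal minus the wt mean was -0.67, -1.01, -1.10, -1.64 and -1.05 on svb arrays for replicates 1 to 5. On the pri arrays it was 0.98, 1.06, 1.20, 0.95 and 1.15. Svb replicate 1 was thus nearest to wt and replicate 4 farthest, while the pri arrays lay close together.

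Replicates 1 and 4 were at the ends of the svb arrays in each level class. In the 31 bright members, the median log2 signal minus the wt mean was -0.49 on replicate 1 and -1.19 on replicate 4. In the 21 members dim in svb only, these values were -0.94 and -1.78, and in the 14 members dim in svb and wt they were -1.15 and -2.09. Replicate 1 was the highest svb array in 32 members, against 16.8% of all tested probe sets, and replicate 4 was the lowest in 32, against 33.8% of all tested probe sets.

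The median signal over all probe sets was 15.2, 15.6, 13.0, 9.82 and 12.4 on svb replicates 1 to 5, and was lowest on replicate 4, as in the members. Among the 801 tested probe sets with an svb mean under 32, replicate 1 deviated by 0.48 from the svb mean and replicate 4 by -0.63, as a median. Among the other 7830 tested probe sets the same medians were -0.04 and 0.09, while the 31 bright members had 0.23 and -0.23. The part of array-wide signal in the members' svb values was not tested. Without svb replicate 4, the rule gave 66 probe sets, and the median svb minus wt difference of the members was -0.98. Without svb replicate 1, the array nearest to wt, it gave 110. Leaving out an array loosens the order conditions, and all 66 members were kept each time. These counts therefore say nothing on how stable the set is.

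**Figure D4:**
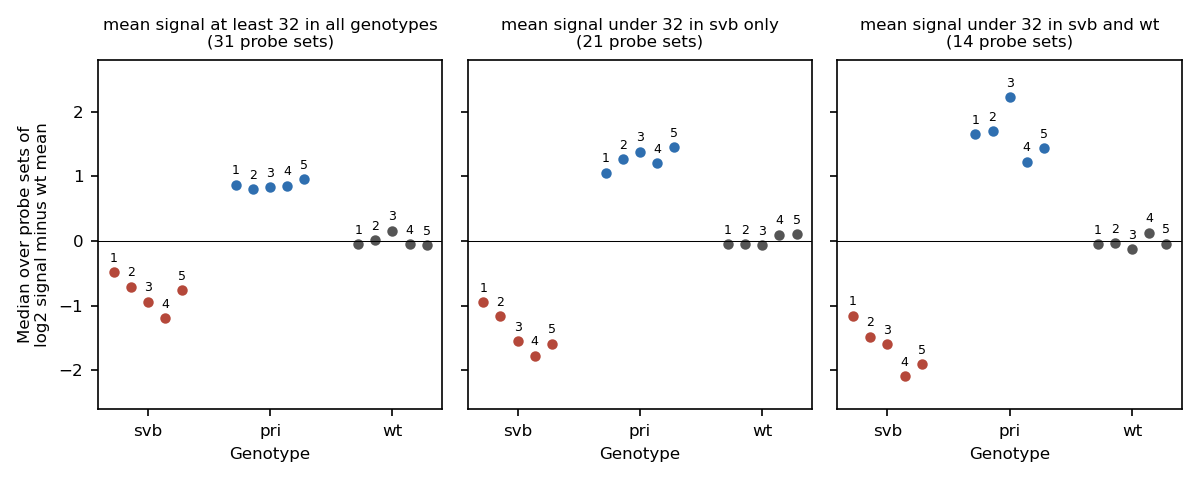
Median over the members of each level class of the log2 signal minus the wt mean (vertical axis), 1 point per array, with the replicate number beside it, for svb, pri and wt (horizontal axis). Svb replicate 1 is nearest to wt and replicate 4 farthest in each class, and the pri arrays lie closer together in the 31 bright members than in either dim class.

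Signals of members were weakly related within genotypes. After the genotype means were removed, the correlation between 2 members over the 15 arrays had a median of 0.18 over 2145 pairs, against 0.02 over all pairs of tested probe sets. Within svb arrays the median was 0.35 for members and 0.00 for all pairs, within pri arrays 0.07 and 0.03, and within wt arrays -0.01 and 0.02. These correlations are a description over 5 arrays per genotype, and the order of the svb arrays given above enters them. Of the 2145 pairs, 62 (2.89%) had a correlation over 0.8, against 2.43% of all pairs.

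The types of probe sets in the members were near those of the array. Probe sets with the plain suffix "at", designed for 1 transcript or gene, were 48 of the members (72.7%) and 71.2% of all tested probe sets. Suffixes that mark probes shared between transcripts or genes were a_at in 8 members, s_at in 9 and x_at in 1. The x_at member can take up signal of unrelated transcripts, and its value is uncertain for this reason. It had signals of 36.9, 48.4, 48.9, 35.8 and 26.9 on svb arrays, 838, 1027, 815, 456 and 479 on pri arrays, and 71.1, 269, 140.4, 132 and 78.6 on wt arrays. It was 3.19-fold lower in svb and 5.60-fold higher in pri, the largest rise of the 31 bright members.

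Dim wt signals were shared with other groups of probe sets. A wt mean under 32 was found in 21.2% of the members, 35.6% of 59 probe sets higher in both mutants, 33.3% of the 18 with the opposite pattern and 30.1% of 1149 that were higher in pri and overlapped wt in svb. In 75 unlisted probe sets lower in both mutants it was found in 0, since such a probe set can pass the filter only through wt. In the 59 probe sets higher in both mutants the median differences were 0.88 in svb and 1.07 in pri. The median rise of 1.12 in pri for the members was close to this and to 1.25 for the 1149. The median fall of the members in svb was -1.11, against -0.73 for 195 probe sets that were lower in svb and overlapped wt in pri, but more of the members had an svb mean under 32 (53.0% against 29.2%). The 31 members with all group means of at least 32 had a median of -0.76. All of these groups were chosen on the same contrasts, and no test was made between them.

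The scaling of the arrays changed which probe sets met the rule. When each array was centred on its median, svb replicate 4 was shifted by 0.54 on the log2 scale relative to the deposited values. The array median lay between 9.82 (svb replicate 4) and 17.5 (pri replicate 3), under the filter level of 32 on every array. Median centring therefore aligned the arrays on dim signals. The median over all tested probe sets then became 0.10 for svb minus wt and -0.24 for pri minus wt. As deposited, these values were -0.01 and -0.04. Under this scaling 50 probe sets met the rule, 40 of them members, among which were 13 of the 31 bright ones. Under quantile normalisation 66 met it, 61 of them members. Under both scalings, each of the 66 members kept a lower mean in svb and a higher mean in pri than in wt. How far the loss of members under median centring comes from its use of dim signals was not tested.

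Calls by the limma test moved with median centring and little with quantile normalisation. As deposited, 345 probe sets were called lower and 174 higher in svb, and 1576 were called higher and 1990 lower in pri. With median centring, 201 were called lower and 174 higher in svb, and 1047 were called higher and 2328 lower in pri. Of the members, 38 were then called lower in svb and 52 higher in pri. With quantile normalisation, 337 were called lower and 195 higher in svb, and 1595 were called higher and 2066 lower in pri. Of the members, 55 were then called lower in svb and 65 higher in pri.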

How the data were processed

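RNA of 15 samples of whole embryos was hybridised to 1-colour Affymetrix arrays covering the Drosophila genome. The authors deposited linear intensities from MAS5 in Affymetrix Expression Console 1.1, scaled to 1 trimmed mean for all arrays. Leaving out 2% on each side, that mean was 100 on every array here. This scaling assumes equal total signal between genotypes, and dim probe sets get unstable values, down to 0.0198. No source used here gives scan batches. Detection calls were not used, so that a signal of 32 stands in for background. Nothing but the labels and the study's methods says that the samples of a genotype are independent, and p-values measure the spread between these samples. Precision is limited by the number of arrays.

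Signals were transformed to log2 with no offset, and the 183 control probe sets and the 10138 probe sets under the filter were left out. A second deposited table lists selected genes in 149 rows with the same 15 signals, of which 145 were matched to 1 probe set by all values (relative tolerance 1e-05) and 4 to none. One model of the 3 group means was fitted over all 15 arrays with limma 3.58.1 in R 4.3.3 (lmFit and eBayes with a trend), with Benjamini-Hochberg adjustment within each contrast and a threshold of 0.05. Folds are ratios of geometric means, and a mean under 32 was set to 32 for bounds. The fitting step was tested on simulated data with known changes. Measures of whole arrays were set against wt with two-sided exact permutation tests. The most alike pair of arrays had a log2 correlation of 0.981, so that none was deposited in duplicate.

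Named are the 2 members with the largest falls in svb and the 2 with the largest rises in pri, both as measured, the rule for probe sets without a gene name. Other members shown were picked after their values were seen. Gene lists, markers, chromosomes and promoter motifs were planned but not used here, because members were not paired with genes. The members and the rule were chosen with earlier results of these data known. Alternatives were other scalings, other filters, an offset of 16, array weights, eBayes with no trend, the replicate number as a block and leaving out each array in turn.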

Additional observations from a re-analysis of the deposited data

Results flagged for a closer look

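The pri arrays of 1625894_at were narrow except for 1. Its highest pri array, replicate 3, had a signal of 833, and the next had 717, a gap that is large beside the spread of the other 4. In all, 33 groups of arrays were screened in this way, and chance flags about 1 in 20.

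Control probe sets of the array were outside the rule. Of the 21 Drosophila controls, 2 were higher in pri than in wt with no overlap, against 14.8% of all tested probe sets. The control AFFX-r2-Dros-Act5C-5_at, for the 5' end of an actin gene, had a mean of 334 in pri and 155 in wt. The control AFFX-r2-Dros-Act5C-5_x_at had a mean of 395 in pri and 185 in wt. Neither was lower in svb without overlap, and 0 controls met both conditions. The other actin controls overlapped wt in pri. The controls lower in pri than in wt with no overlap were AFFX-Dros-18S_rRNA_3_at, AFFX-Dros-eIF-4a_3_at and AFFX-Dros-eIF-4a_M_at. Their means in pri and wt were 2823 and 3933, 2780 and 3700, and 1685 and 2033, in that order.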

How the results depend on the processing

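Of 198 alternative values over 23 settings, 188 stayed within 1.5 times the given count or 1 SD of the given median, and every median kept its sign. Some of these values could not move, such as the svb median when a pri array was left out. Members were chosen on the sign of both differences, so that the kept sign follows largely from the rule. With an offset of 16, which shrinks dim differences by construction, the median over the members was -0.67 for svb minus wt and 0.90 for pri minus wt, and with median centring it was 0.92 for pri minus wt. Over all tested probe sets, 345 were called lower in svb, and this count was 201 with median centring, 218 with a filter at 6.5 and 569 with array weights. The count of 174 called higher in svb was 103 with a filter at 6.5 and 348 with array weights. The count of 1576 called higher in pri was 1047 with median centring. Beyond the construction of the settings, the cause of these shifts was not tested. Leaving out each array in turn gave between 66 and 110 probe sets by the rule, the most without svb replicate 1. Fewer arrays loosen the order conditions, so apart from the filter these counts could only stay or rise. Among the runs leaving out 1 array, members called lower in svb were fewest (41 of 66) without wt replicate 2. In that run, 231 of 8631 tested probe sets were called lower in svb. With median centring 38 of 66 members were called lower in svb, and with a filter at 6.5 it was 40 of 47. With a filter at 6.5 the rule gave 47 probe sets and with no filter 74.

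The genotypes share replicate numbers in the labels. The 15 correlations of deviations between same-numbered arrays were mixed in sign. They lay between -0.61 and 0.37, and 7 were over 0.1. No differently numbered arrays were set beside them, so that shared deviation was not settled. The numbers were not taken as pairs. With the replicate number as a block, the calls covered 48 members in svb and 62 in pri, and over all tested probe sets 273 were called lower in svb, 138 higher in svb, 1843 lower in pri and 1518 higher in pri.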

Other observations

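Among the array's own 21 Drosophila controls, 3 probe sets for GAPDH, a glycolytic enzyme, were lower in svb than in wt with no overlap. Of all tested probe sets, 4.06% were. The other GAPDH controls overlapped wt in svb, among them the brightest, AFFX-Dros-GAPDH_3_at, with means of 920 in svb and 1212 in wt. The overlap of this brightest control was narrow, with a highest svb array of 1171 and a lowest wt array of 1164. The control AFFX-r2-Dros-GAPDH-3_a_at had signals of 172, 96.9, 85.5, 103 and 94.9 on svb arrays, 352, 446, 499, 235 and 273 on pri arrays, and 235, 287, 270.3, 276 and 216 on wt arrays. It was lower on all svb arrays, and on the pri arrays it overlapped wt. Its means were 111 ± 35.0 in svb, 361 ± 112 in pri and 257 ± 30.1 in wt (SD, n = 5 each).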
